A study of Mus musculus with 11 samples.

Results

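Bile acid handling was examined through 9 genes chosen by name out of 22243 genes in the deposited table: the transporters Slc10a2, Slc51a, Slc51b and Abcc3, the cytosolic binding protein gene Fabp6, the receptor genes Nr1h4, Gpbar1 and Vdr, and the hormone gene Fgf15. Polyadenylated RNA was measured in full-thickness distal colon, wall muscle included, of 6 wild-type mice (WT) and 5 mice homozygous for loss of Nrg4, labelled Nrg4 KO (KO). All were adults of 11 to 12 weeks, of both sexes, and the genotypes had been mixed in cages from week 9. Each cage mixed the genotypes, with 2 WT beside 2 KO in cages A and B and 2 WT beside 1 KO in cage C. The product of Nrg4, neuregulin-4, activates the receptor ErbB4. The strain and the making of the allele were not given in the sources used here, and the sex of single mice is not labelled.

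Bile acids are made from cholesterol in the liver, secreted into the gut and mostly taken back up in the terminal ileum. There the apical transporter encoded by Slc10a2 brings them in, the protein encoded by Fabp6 carries them through the cytosol, and the basolateral exporter formed by the products of Slc51a and Slc51b releases them. The nuclear receptor FXR, encoded by Nr1h4, senses them and switches on Fabp6, Slc51a, Slc51b and Fgf15, whose product signals to the liver to slow synthesis. Bile acids that reach the colon are modified by bacteria and act on FXR, on the membrane receptor TGR5, encoded by Gpbar1, and, in the case of lithocholic acid, on the vitamin D receptor.

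All 9 genes had 1 transcript each in the table. Every KO range overlapped its WT range, as was so for all but 0.223% of the 10756 genes tested below. Values are in TPM, a relative abundance corrected for transcript length, which allows levels of the listed transcripts to be compared per length. Each level is that of 1 principal transcript and can miss part of a gene's RNA. GENCODE M21 lists 6 transcripts each for Vdr and Abcc3, 5 for Fgf15 and 3 each for Nr1h4 and Slc51a. In distal colon Vdr stood highest, Fabp6, Slc51b, Nr1h4 and Abcc3 were at intermediate levels, Slc10a2 was low, and Gpbar1, Slc51a and Fgf15 were below 1 TPM on average. Of the 9, 6 passed the filter of at least 1 TPM in at least 5 mice and were tested; Gpbar1, Slc51a and Fgf15 did not pass. None of the 6 differed between genotypes at a false discovery rate (FDR) of 0.05 in limma, a linear model across genes with cage and genotype as terms, in which 4 of 10756 genes (0.0372%) were called. The lowest unadjusted p among the members belonged to Fabp6, with a lower mean in KO.

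**Figure D1:**
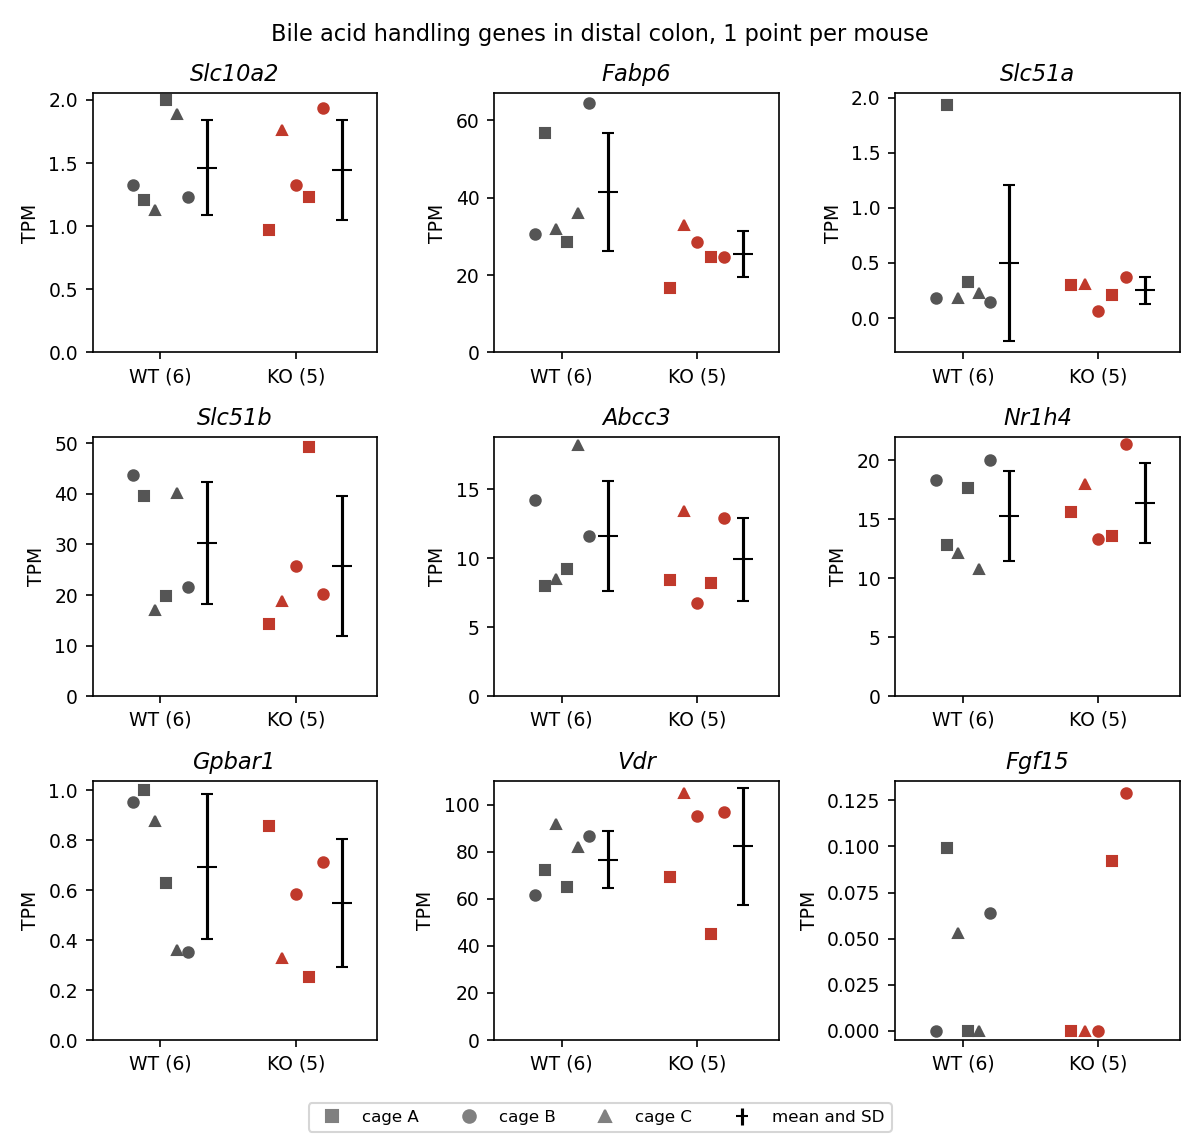
TPM of each of the 9 genes in each mouse (vertical axes, linear, each with its own scale), by genotype, with the point shape giving the cage; black bars are the mean and SD of 6 WT and 5 KO mice, left out for Fgf15, which was listed at 0 in 6 mice. The KO points overlap the WT points in every panel, as in all but 0.223% of tested genes. The Fabp6 panel has WT-5 and WT-11 at 56.6 and 64.5 TPM, and the Slc51a panel has a single WT mouse at 1.93 TPM.

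The libraries differed in ways that bear on these values. Nrg4 was listed at 0 TPM in all 11 mice, so the labels could not be checked on the targeted gene. Mitochondrially encoded genes took between 19.0% and 31.4% of a mouse's summed TPM in all mice but KO-3, where they took 42.9%. KO-3, the only KO mouse of cage C, also had the highest summed TPM. The Y-linked gene Eif2s3y, chosen after its values were seen, lay between 21.5 and 31.8 TPM in the mice of cage A and at or below 0.0523 TPM in the others, so a difference between cage A and the other cages and a difference by sex cannot be told apart. Colonocyte markers were abundant: WT mice averaged 1621 ± 436 TPM of Car4 (SD, n = 6) and KO mice 1450 ± 387 TPM (SD, n = 5), with 567 ± 212 and 570.1 ± 196 TPM of Slc26a3. Small intestine markers were mixed. Of 24 listed, 12 passed the filter, and the list summed to between 172 and 318 TPM in a mouse. Among those near 0 were Sis, at most 0.420 TPM in any mouse, Lct, at most 0.209 TPM, and Gata4, at most 0.0788 TPM. The table can also list a gene known from colon near 0: Slc9a3, the apical sodium-hydrogen exchanger of colonocytes, was at most 0.0844 TPM.

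Uptake and cytosolic binding come first. Fabp6 (ENSMUSG00000020405) lies on the minus strand of chromosome 11 at 43596049 to 43601540 (GRCm38, GENCODE M21). It is shown with its promoter because it is a classical FXR target and had the largest difference between genotypes among the members that were tested. The stretch of 250 bases upstream of the RefSeq start (GRCm38.p6, chr11:43601563-43601812, minus strand, written 5′ to 3′) holds 2 matches, in capitals, to an imperfect inverted repeat of the nuclear receptor hexamer: GGTGA, any base, T, any base and ACC, searched on both strands.
Fabp6: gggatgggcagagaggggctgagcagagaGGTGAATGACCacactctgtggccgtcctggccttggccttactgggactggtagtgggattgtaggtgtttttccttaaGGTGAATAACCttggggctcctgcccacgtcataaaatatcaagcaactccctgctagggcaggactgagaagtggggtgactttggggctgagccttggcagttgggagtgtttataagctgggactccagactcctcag
The matches begin 221 and 141 bases upstream of the start. These letters were chosen after the promoters of the members had been read, so a match in Fabp6 or any other member is no finding. They occur in 0.0974% of 32851 promoter windows of the same length.

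The protein encoded by Fabp6 binds bile acids in the cytosol of absorptive cells. In WT mice Fabp6 had 30.7 TPM in WT-2, 56.6 in WT-5, 32.0 in WT-6, 28.5 in WT-7, 36.0 in WT-10 and 64.5 in WT-11. In KO mice it had 16.7 TPM in KO-1, 32.9 in KO-3, 28.5 in KO-4, 24.7 in KO-8 and 24.6 in KO-9. The highest mice, WT-11 and WT-5, stood apart from the rest, the lowest, KO-1, KO-9 and KO-8, were all KO, and the groups overlapped from 28.5 to 32.9 TPM. WT mice averaged 41.4 ± 15.3 TPM (SD, n = 6) and KO mice 25.5 ± 5.95 TPM (SD, n = 5). The fitted log2 fold change was -0.65 ± 0.25 (standard error) on the log2(TPM + 0.5) scale with a 95% confidence interval of -1.21 to -0.09. The unadjusted limma p was 0.0262, which ranked Fabp6 number 188 of 10756 genes, and the limma FDR was 1.00. At an unadjusted p below 0.05, 3.1% of all tested genes were found, and 1 of the 6 tested members. In the authors' deposited table the Fabp6 transcript had a p of 0.0196 and a q of 1, beside 2.24% of 14763 transcripts at a p below 0.05 and 0.0339% at a q below 0.05.

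Within cages, Fabp6 differed between KO and WT by -0.97 (log2) in cage A and -0.74 in cage B. The value for cage C, where KO-3 is the only KO mouse, was -0.05. The test that this difference depended on cage gave an unadjusted limma p of 0.384. Single mice moved the unadjusted p across 0.05: it was 0.0643 without WT-5, 0.0682 without WT-11, 0.0691 without KO-1 and 0.0565 without KO-9, and below 0.05 in the other 7 fits that leave out 1 mouse. The log2 fold change lay between -0.85 and -0.47 over these 11 fits. In bulk tissue fewer cells of a type and less RNA per cell cannot be told apart; the summed TPM of 22 absorptive colonocyte markers ranged from 9493 to 16476 in WT and from 10228 to 13210 in KO. The summed TPM of 24 small intestine markers ranged from 213 to 318 in WT (median 270.2) and from 172 to 290.3 in KO (median 276.5), most of it from Rbp2, Mep1a and Slc5a1, and its part in the Fabp6 values was not tested. WT-11, the highest Fabp6 mouse, also stood apart in the summed TPM of 9 adipocyte markers, at 186 TPM against at most 47.2 TPM in any other mouse, with Cfd at 88.3 against at most 7.58 TPM and Fabp4 at 59.4 against at most 16.2 TPM. The part of this in the Fabp6 values was not tested.

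Slc10a2 (ENSMUSG00000023073, chromosome 8, 5083219 to 5105351, minus strand) encodes the apical sodium-dependent bile acid transporter, which does the first step of ileal recovery. The 6 WT mice ranged from 1.13 to 1.998 TPM with a median of 1.28 TPM. Among KO mice it was 0.974 TPM in KO-1, 1.76 in KO-3, 1.33 in KO-4, 1.23 in KO-8 and 1.94 in KO-9. The genotypes covered the same span. WT mice averaged 1.46 ± 0.380 TPM (SD, n = 6) and KO mice 1.45 ± 0.397 TPM (SD, n = 5). The fitted log2 fold change was 0.00 ± 0.20 with an interval of -0.45 to 0.46 (limma FDR 1.00). The sign changed under 8 of the alternatives, and the interval excludes a 2-fold difference in either direction on this scale.

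The basolateral exporter is a heteromer of OSTα, encoded by Slc51a, and OSTβ, encoded by Slc51b, and neither subunit reaches the cell surface without the other. Slc51b (ENSMUSG00000053862) lies on chromosome 9 at 65412714 to 65422955, minus strand, 10.1 Mb from Nrg4, and is the only member on that chromosome. Slc51a (ENSMUSG00000035699) lies on chromosome 16 at 32474504 to 32487879, minus strand. Their promoters are shown because the partner genes stood far apart in level. The first line gives the 75 bases at the far end of the Slc51b window (chr9:65422949-65423023, minus strand), ending with a match to the imperfect inverted repeat on the other strand; the second gives the 250 bases upstream of the Slc51a start (chr16:32487880-32488129, minus strand).
Slc51b: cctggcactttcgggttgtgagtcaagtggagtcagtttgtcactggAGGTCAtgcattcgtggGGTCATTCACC
Slc51a: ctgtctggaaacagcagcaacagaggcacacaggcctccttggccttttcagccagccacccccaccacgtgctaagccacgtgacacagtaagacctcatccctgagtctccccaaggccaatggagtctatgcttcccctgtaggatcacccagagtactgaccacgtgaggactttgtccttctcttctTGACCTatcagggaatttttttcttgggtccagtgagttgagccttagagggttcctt
Capitals mark the hexamer AGGTCA, found on either strand, and the longer repeat. The Slc51b matches begin 203 and 186 bases upstream of the RefSeq start, and the Slc51a match 58 bases upstream. For Slc51b the 2 sources place the start differently. The 5′ end of the GENCODE gene, 65422955, lies inside the RefSeq window (65422774 to 65423023), and the longer repeat spans it.

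Of the 7 members in the promoter table, Fabp6 and Slc51b held the imperfect inverted repeat, whose letters were chosen after these promoters had been read. Slc51a, Slc51b and Nr1h4 held AGGTCA, which occurs in 14% of all windows. The shorter inverted repeat TCANTGA was found in Gpbar1 alone of the 7 and in 5.93% of all windows. The perfect inverted repeat of AGGTCA with 1 base between and the perfect direct repeat with 3 bases between were found in 0 of the 7, and each in 2 of the 32851 windows. Among 70 other genes of the pathway lists with a promoter in the table, 1 held the imperfect inverted repeat, Hnf4a, which encodes a nuclear receptor of gut and liver epithelium. Matches to AGGTCA and to the repeats can overlap. The windows of Slc10a2, Slc51b and Gpbar1 lie partly inside the GENCODE span of the gene, and those of Nr1h4 and Vdr wholly inside it. A match describes these letters in this window and is no evidence of binding.

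Slc51b had 43.7 TPM in WT-2, 39.5 in WT-5, 17.1 in WT-6, 19.9 in WT-7, 40.1 in WT-10 and 21.6 in WT-11. In KO mice it had 14.3 TPM in KO-1, 18.9 in KO-3, 25.7 in KO-4, 49.3 in KO-8 and 20.2 in KO-9. WT-2, WT-5, WT-10 and KO-8 lay at or above 39.5 TPM, the other mice at or below 25.7 TPM, and each cage held mice of both kinds. WT mice averaged 30.3 ± 12.0 TPM (SD, n = 6) and KO mice 25.7 ± 13.8 TPM (SD, n = 5). The fitted log2 fold change was -0.30 ± 0.36 with an interval of -1.11 to 0.50 (limma FDR 1.00). A 2-fold lower level in KO therefore lies inside the interval. Without KO-8 the log2 fold change was -0.59, and without KO-1 it was -0.08.

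Slc51a had 0.179 TPM in WT-2, 1.93 in WT-5, 0.183 in WT-6, 0.327 in WT-7, 0.225 in WT-10 and 0.147 in WT-11. In KO mice it had 0.298 TPM in KO-1, 0.308 in KO-3, 0.0612 in KO-4, 0.212 in KO-8 and 0.372 in KO-9. WT-5 stood alone, and the other mice lay at or below 0.372 TPM. In a fit with no filter, in which 2 of 18070 genes (0.0111%) were called, the log2 fold change was -0.26 ± 0.31 (limma FDR 1), and with WT-5 also left out it was 0.05 ± 0.13. WT-5 was also the highest mouse for several small intestine markers: Apoa1 had 8.19 TPM there and at most 3.10 TPM in any other mouse, Reg3b 18.1 against 6.46 TPM, Defa24 3.62 against 0.955 TPM and Sis 0.420 against 0.0914 TPM. These markers were picked after their values were seen. Over the whole list of 24 markers WT-5 was the highest mouse for 8, lay above the median of the 11 mice for 15 and below it for 6, and was lowest or tied for lowest in 3. Rbp2, the most abundant, was at 61.5 TPM in WT-5, where only KO-8 was lower, and the summed list at 254.9 TPM lay below the median of the 11 mice, 276.5 TPM. The part of these markers in the Slc51a value was not tested.

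The subunit transcripts were thus unequal in every mouse. Slc51b exceeded Slc51a in TPM by 20.4-fold in WT-5, the lowest ratio, and by 420.3-fold in KO-4, the highest, with a median of 93.4-fold. Slc51a lay at or below 0.372 TPM in every mouse but WT-5 and at 0.0612 TPM in KO-4, so the size of these ratios rests on values near 0. The Slc51a gene has 3 transcripts in GENCODE M21, of which 1 is protein-coding, and transcripts other than the principal one are not analysed here. On the log2 scale with 0.5 TPM added to each gene, the ratio was 5.05 ± 0.757 in WT (SD, n = 6) and 5.01 ± 0.799 in KO (SD, n = 5). The difference between genotypes was -0.04 (two-sided exact permutation p = 0.926 over 462 splits, and 0.935 over the 108 splits made within cages). The 0.5 TPM added exceeds Slc51a itself in every mouse but WT-5, so this quantity mostly carries Slc51b and says little about the balance of the subunits by genotype.

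**Figure D2:**
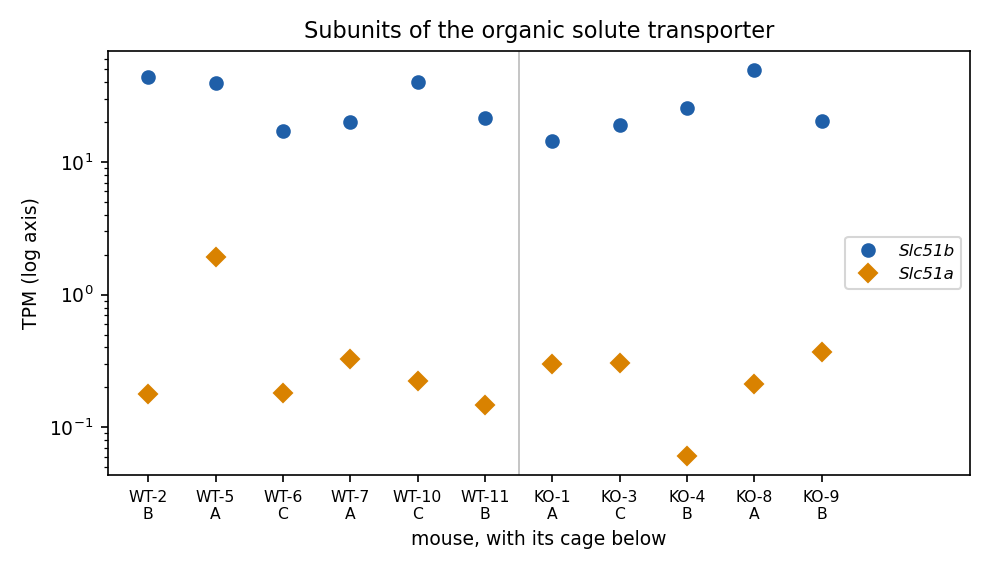
TPM of Slc51b (circles) and Slc51a (diamonds) in each mouse on a log axis, with the cage under the mouse's name and the WT mice to the left of the line. Slc51b lies between 14.3 and 49.3 TPM and Slc51a at or below 0.372 TPM in every mouse but WT-5, where it reaches 1.93 TPM.

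Abcc3 (ENSMUSG00000020865, chromosome 11, 94343295 to 94392997, minus strand) encodes MRP3, a basolateral pump for organic anions, bile acid conjugates among them. The 6 WT mice ranged from 8.003 to 18.2 TPM with a median of 10.4 TPM. The KO mice had 8.41 TPM in KO-1, 13.4 in KO-3, 6.75 in KO-4, 8.23 in KO-8 and 12.9 in KO-9. The highest mouse was WT-10 and the lowest KO-4, with the rest interleaved. WT mice averaged 11.6 ± 3.95 TPM (SD, n = 6) and KO mice 9.93 ± 2.9995 TPM (SD, n = 5). The fitted log2 fold change was -0.15 ± 0.22 with an interval of -0.64 to 0.33 (limma FDR 1.00). All 4 mice of cage A lay at or below 9.20 TPM, while cages B and C held low and high mice; the cage test gave an unadjusted limma p of 0.170.

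Receptors and the hormone follow. Vdr (ENSMUSG00000022479, chromosome 15, 97854425 to 97910630, minus strand) encodes the vitamin D receptor, which also binds lithocholic acid. It had 61.8 TPM in WT-2, 72.1 in WT-5, 91.8 in WT-6, 65.0 in WT-7, 81.8 in WT-10 and 86.6 in WT-11. In KO mice it had 69.2 TPM in KO-1, 105 in KO-3, 94.97 in KO-4, 45.2 in KO-8 and 96.7 in KO-9. The 3 highest mice and the single lowest were all KO, so the KO values enclosed the WT values. WT mice averaged 76.5 ± 12.1 TPM (SD, n = 6) and KO mice 82.3 ± 24.7 TPM (SD, n = 5). The fitted log2 fold change was 0.11 ± 0.16 with an interval of -0.24 to 0.46 (limma FDR 1.00).

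Vdr was the member with the smallest p for cage. All 4 mice of cage A lay at or below 72.1 TPM, and of the 7 mice of cages B and C all but WT-2 lay at or above 81.8 TPM. Against cage A the log2 value was higher by 0.43 ± 0.18 in cage B and by 0.59 ± 0.20 in cage C (standard errors). Eif2s3y was high only in cage A, so a difference by cage and a difference by sex cannot be told apart here. The F test on cage gave an unadjusted p of 0.0293 and a limma FDR of 0.379, so Vdr did not pass. At an unadjusted p below 0.05 the cage test found 12.1% of all tested genes and 1 of the 6 tested members, while at the FDR threshold it found 0 genes (0%), with a smallest limma FDR of 0.0876. With TPM rescaled after removal of mitochondrially encoded genes, 0 members had an unadjusted cage p below 0.05. KO mice differed from WT mice by -0.29 (log2) in cage A, while the differences for cages B and C were 0.39 and 0.28. The limma interaction test gave an unadjusted p of 0.140 and an FDR of 1.00.

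**Figure D3:**
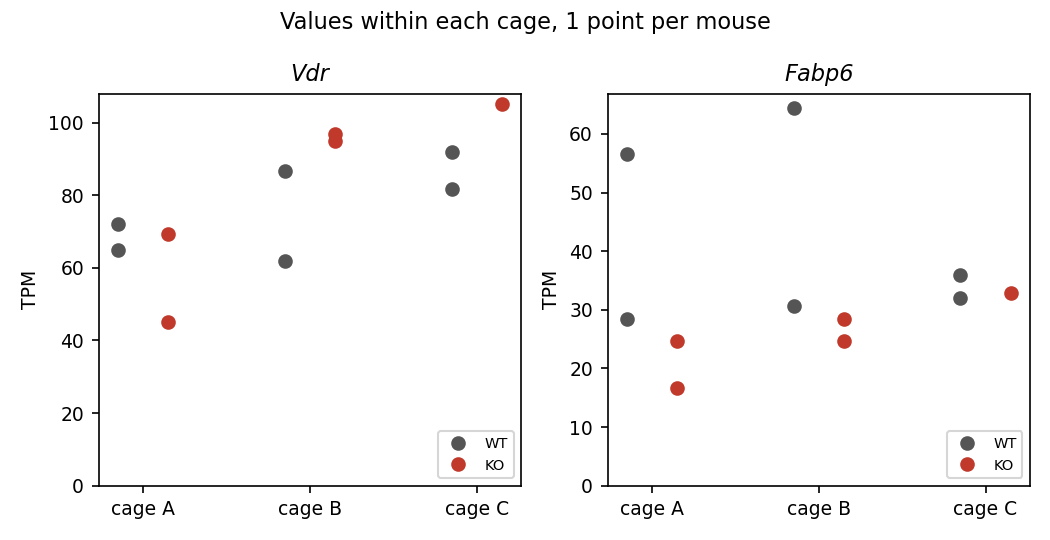
TPM of Vdr and Fabp6 (vertical axes, linear, from 0) in each mouse, by cage and genotype (gray WT, red KO). In cage A all Vdr points lie at or below 72.1 TPM; in cages A and B all KO points of Fabp6 lie at or below 28.5 TPM, and in cage C the single KO mouse lies within the WT span.

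Nr1h4 (ENSMUSG00000047638, chromosome 10, 89454234 to 89533585, minus strand) encodes FXR. WT mice ranged from 10.8 to 20.0 TPM with a median of 15.2 TPM. KO mice had 15.6 TPM in KO-1, 18.0 in KO-3, 13.3 in KO-4, 13.6 in KO-8 and 21.4 in KO-9. Values were spread evenly over both genotypes. WT mice averaged 15.3 ± 3.85 TPM (SD, n = 6) and KO mice 16.4 ± 3.38 TPM (SD, n = 5). The fitted log2 fold change was 0.07 ± 0.17 with an interval of -0.30 to 0.45 (limma FDR 1.00). Without KO-3, the only KO mouse of cage C and the library with the highest mitochondrial share, it was -0.11, the same as without cage C.

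Gpbar1 (ENSMUSG00000064272, chromosome 1, 74278550 to 74279624, plus strand) encodes TGR5, a receptor of enteroendocrine cells and macrophages. WT mice ranged from 0.353 to 1.0003 TPM with a median of 0.752 TPM. Levels in KO mice were 0.859 TPM in KO-1, 0.328 in KO-3, 0.587 in KO-4, 0.254 in KO-8 and 0.714 in KO-9. The groups overlapped over most of their span. In the fit with no filter the log2 fold change was -0.22 ± 0.23 (limma FDR 1). Markers of the cells that carry the receptor were present: the L cell hormone gene Pyy averaged 255 ± 40.8 TPM (SD, n = 6) in WT against 220.2 ± 52.2 TPM (SD, n = 5), and the macrophage gene Lyz2 60.1 ± 35.1 and 55.8 ± 33.8 TPM.

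Fgf15 (ENSMUSG00000031073, chromosome 7, 144896531 to 144900953, plus strand) encodes the ileal hormone that FXR induces. It was listed at 0 in WT-2, WT-7, WT-10, KO-1, KO-3 and KO-4. The others had 0.0989 TPM in WT-5, 0.0529 in WT-6, 0.0640 in WT-11, 0.0921 in KO-8 and 0.129 in KO-9. These levels are too low for a comparison of genotypes. The FXR target Nr0b2, which encodes the corepressor SHP, was likewise listed at 0 in all mice but WT-5, at 0.0854 TPM, and the vitamin D target Cyp24a1 was at 0 in all 11.

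**Figure D4:**
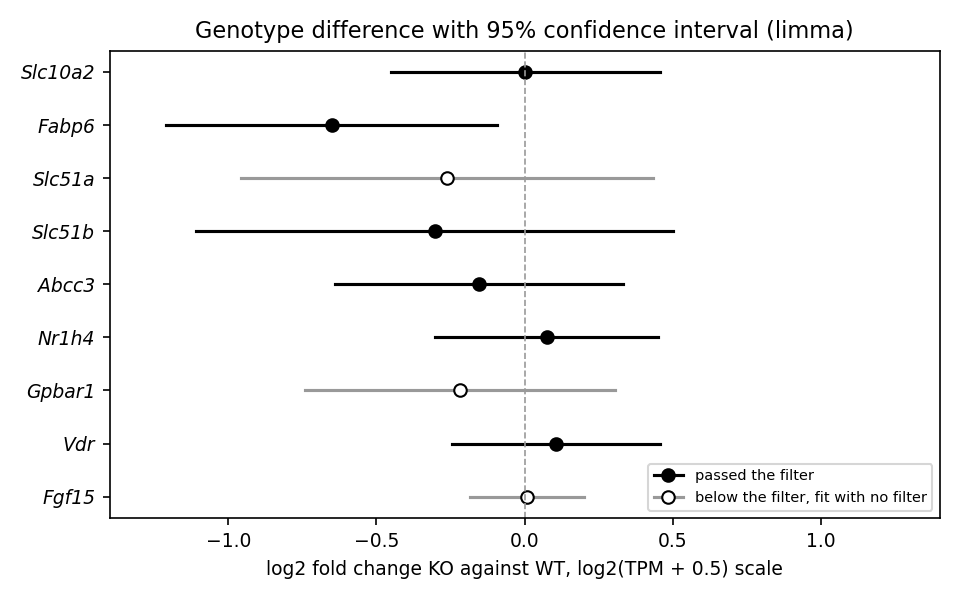
Log2 fold change of KO against WT (horizontal axis, log2(TPM + 0.5) scale) with its 95% confidence interval from limma for the 9 genes; filled points passed the filter and open points come from the fit with no filter. The interval of Fabp6, -1.21 to -0.09, lies below 0 before adjustment, and the other 8 intervals include 0.

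How firmly each transcript was measured differed. In the authors' deposited table the average log-scale abundance corresponds to an estimated count of about 3458 for Vdr, 536.5 for Abcc3, 293 for Nr1h4, 143 for Slc51b, 96.6 for Fabp6, 60.7 for Slc10a2 and 5.91 for Gpbar1. The same authors' deposited table gives no such value for Slc51a and Fgf15. Its column of technical variance, on the squared natural log scale, reads 0.411 for Nr1h4 and 0.299 for Abcc3, above 92.8% and 96.85% of transcripts within 0.5 natural log units of the same mean count. For these genes the technical variance in the authors' deposited table exceeded the observed variance between mice, 0.0490 and 0.0908. The same held in the authors' deposited table for Gpbar1, with 0.260 against 0.192. It was 0.0116 for Fabp6, 0.00741 for Slc51b and 0.000274 for Vdr in the authors' deposited table, each below the observed variance.

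The order of the mean levels of the principal transcripts over the 11 mice was Vdr, Fabp6, Slc51b, Nr1h4, Abcc3, Slc10a2, Gpbar1, Slc51a and Fgf15. Vdr exceeded Fabp6 in all 11 mice, with 79.1 ± 18.1 against 34.1 ± 14.1 TPM (SD, n = 11). Fabp6 exceeded Slc51b in 8 of 11 mice, Slc51b exceeded Nr1h4 in 9 and Nr1h4 exceeded Abcc3 in 10. The technical variance given above for Nr1h4 and Abcc3 exceeded their variance between mice, so the places of these genes in the order are uncertain. The ranges over the mice overlapped for each of the pairs named, Vdr and Fabp6 included. Abcc3 and Slc10a2 were separated in all mice without overlap of their ranges. Relative to the mean, the SD over mice was widest for Slc51a, at 135%, and among the tested members for Slc51b, at 44.0%, and Fabp6, at 41.4%.

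The members did not form one pattern across mice. After each gene was centred on its cage mean, Pearson's r over the 11 mice ranged from -0.70 for Slc51b with Vdr to 0.52 for Slc10a2 with Abcc3 among the 15 pairs of tested members. Fabp6 with Slc51b had r = 0.31. By the same measure, the genes most like Vdr were Ep400 (r = 0.99) and Sectm1b (r = 0.98), those most like Slc51b were Ippk (r = 0.96) and Mrpl46 (r = 0.93), and those most like Fabp6 were the Paneth cell defensin gene Defa17 (r = 0.93) and Klhdc4 (r = 0.93). Mon1a and Srpk2 were nearest to Slc10a2 (r = 0.94 and 0.93), Slc25a37 and Cops8 to Abcc3 (r = 0.93 and 0.92), and Bri3bp and Timm21 to Nr1h4 (r = 0.89 for both). Without centring, r for the same pairs lay between 0.49 for Timm21 with Nr1h4 and 0.98 for Sectm1b with Vdr, with 0.66 for Ep400 with Vdr. The centred values are the top out of 10756 genes over few mice of shared cages, and are given as description. Defa17 averaged 0.842 TPM.

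Other genes of bile acid handling were described from 5 lists of 86 genes, of which 49 passed the filter. None passed the threshold for genotype, where 0.0372% of all genes did; 26 had higher and 23 lower means in the KO fit, with a median log2 fold change of 0.01, beside -0.08 for the 6 tested members and -0.01 over all 10756 genes. At an unadjusted p below 0.05 there were 2 of the 49, both lower in KO, beside 3.1% of all genes.

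**Figure D5:**
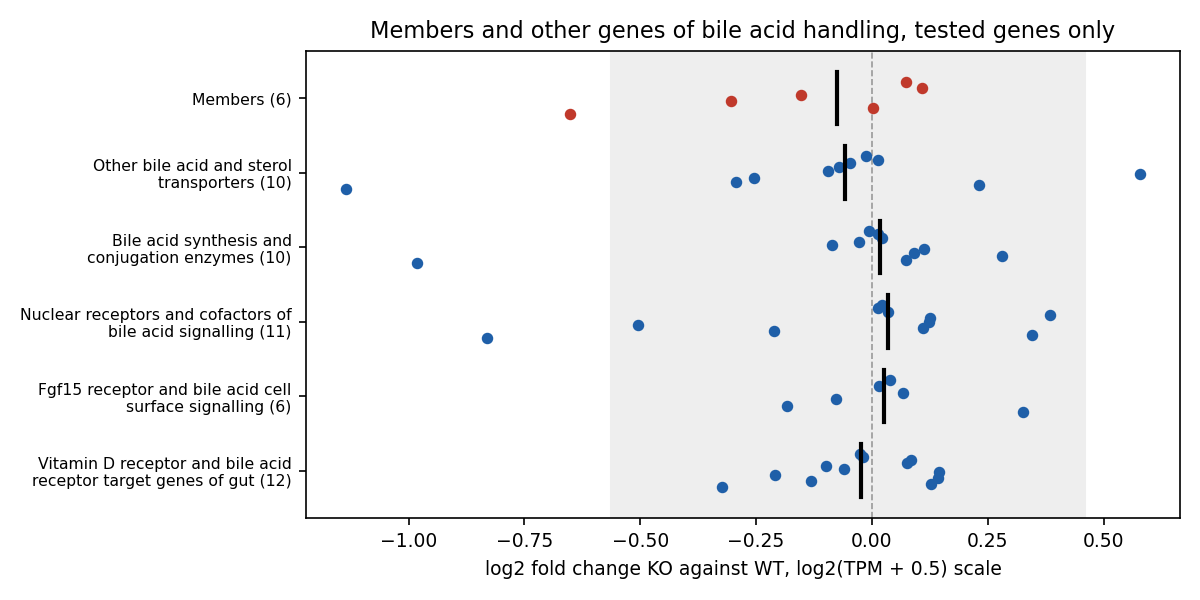
Log2 fold change of KO against WT (horizontal axis, log2(TPM + 0.5) scale) for tested members (red) and tested genes of 5 other lists (blue), with the number tested in brackets; thick black lines are medians and the gray band spans the central 95% of all tested genes, from -0.56 to 0.46. Points lie on both sides of 0 in each list, with Slc10a7, Hsd3b7 and Rxrb farthest to the left.

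Of the 20 other transporters, 10 were tested, 3 with higher and 7 with lower means in KO. Slc10a7, a bile acid transporter family member by sequence, had 2.46 TPM in WT-2, 3.09 in WT-5, 4.19 in WT-6, 3.63 in WT-7, 3.19 in WT-10 and 2.47 in WT-11, and 1.62 in KO-1, 1.42 in KO-3, 2.43 in KO-4, 1.27 in KO-8 and 0 in KO-9. Its groups did not overlap, as for 0.223% of all tested genes, although KO-4 and WT-2 were close. The fitted log2 fold change was -1.14 ± 0.38 (limma FDR 1.00). KO-9 alone was listed at 0, so the size of this value depends in part on the 0.5 TPM added. Slco3a1 had a log2 fold change of 0.23 ± 0.18. Abcb11, the gene of the liver's bile salt export pump, was listed at 0 in all mice and the sterol transporter gene Abcg8 averaged 1.13 TPM, while the drug efflux pump genes Abcb1a and Abcg2 averaged 97.3 and 38.3 TPM.

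Synthesis and conjugation enzymes had 10 of 19 genes tested, 6 with higher and 4 with lower means. The liver enzymes Cyp7a1, rate-limiting for synthesis, and Cyp8b1 averaged 0.00329 and 0.0474 TPM. Hsd3b7, which acts on the sterol ring, averaged 10.2 ± 1.395 TPM (SD, n = 6) in WT against 7.24 ± 4.09 TPM (SD, n = 5) in KO. Its fitted log2 fold change was -0.98 ± 0.38 (limma FDR 1.00). KO-3, the library with the highest mitochondrial share, alone had 0.660 TPM, and the other KO mice lay between 6.72 and 11.7 TPM. Acot8 had a log2 fold change of 0.07 ± 0.09.

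Nuclear receptors and cofactors had 11 of 16 tested, 8 with higher and 3 with lower means. Rxra, which encodes the usual partner of FXR and the vitamin D receptor, lay between 13.6 and 18.6 TPM in all mice. Rxrb, a related partner gene, had a log2 fold change of -0.83 ± 0.39 (limma FDR 1.00) and was listed near 0 in the same library, KO-3, at 1.9e-05 TPM, and at 1.53 TPM or more in the other KO mice. Ncor1, a corepressor, had 0.35 ± 0.23.

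The list of Fgf15 receptors and cell surface signalling genes had 6 of 11 tested, 4 with higher and 2 with lower means. Fgfr4 and Klb, which encode the receptor and co-receptor of Fgf15, averaged 7.09 and 2.68 TPM; Chrm2 had a log2 fold change of 0.33 ± 0.25 and Adcy6 -0.18 ± 0.15. Among target genes of the vitamin D and bile acid receptors 12 of 20 were tested, 5 with higher and 7 with lower means. Abcg1, a sterol exporter gene, had -0.32 ± 0.32 and the gluconeogenic gene Pck1 0.13 ± 0.17. The vitamin D target S100g, which encodes calbindin-D9k, varied from 12.19 TPM in WT-5 to 340 TPM in WT-11, with both genotypes across that span. Against cage A its log2 value was higher by 2.17 ± 0.70 in cage B and by 2.48 ± 0.77 in cage C (standard errors), the direction seen for Vdr. The unadjusted limma cage p was 0.0134 and the FDR 0.343. An unadjusted limma cage p below 0.05 was found for 12.1% of all tested genes and for 8 of the 49 tested genes of the 5 lists. By list these were 3 of the 12 here, 4 of 11 nuclear receptors and cofactors and 1 of 10 enzymes. The transporter list and the Fgf15 receptor list had 0. Such a p was also found for 6 of 19 tested absorptive colonocyte markers, among them Slc26a3 and Car4, lowest in cage A, and Guca2a, highest there. Cage A and sex cannot be told apart.

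The difference between genotypes was also tested for dependence on cage. None of the 6 tested members was called, against 2 of 10756 genes (0.0186%), and 0 members had an unadjusted p below 0.05, beside 3.97% of all genes; cage C holds a single KO mouse, so this test has little to rest on there.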

How the data were processed

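The tools named are CASAVA, kallisto and sleuth and the build is mm10, per the submitters' processing notes, with no versions. Stranded libraries were read as single-end 75 nt reads, per the labels' protocols. The table deposited by the authors holds TPM per principal transcript and mouse, with sleuth's p-value, q-value, likelihood-ratio score, log2 ratio, mean natural log of the estimated count and variance terms, per the file headers. After 405 repeated rows of 29213 were dropped, TPM were summed per gene (558446 to 770986 per mouse). TPM keeps no depth, so no counting interval is given. Genes reaching 1 TPM in 5 or more mice were fitted with limma 3.58.1 (R 4.3.3) on log2(TPM + 0.5), with a mean-variance trend, cage and genotype, and Benjamini-Hochberg adjustment over 10756 genes. On simulated data for KO against WT with 10756 genes the fit called 65% of true 2-fold and 94% of true 4-fold changes. The noise was normal and independent between genes, and many more genes were given a change than were called in the data. These shares are averages over randomly drawn genes and do not give the chance of calling a change in a member. Positions are from GENCODE M21, and promoters from RefSeq (GRCm38.p6), where 7 of 9 members were found. Named genes were the members, the 2 smallest p of each list, the 2 most alike each tested member, and the marker genes given with the libraries; Abcb11, Abcg8, Abcb1a, Abcg2, Cyp7a1, Cyp8b1, Rxra, Fgfr4, Klb, S100g, Nr0b2, Cyp24a1 and several markers were added after their values were seen. The members and lists were chosen with earlier results of these data known. Replicates are single mice. Alternatives covered pseudocount, filter, scaling, cage term, variance model and left-out mice.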

Additional observations from a re-analysis of the deposited data

Results flagged for a closer look

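Of 20 sets of values checked (the 9 genes and the Slc51b to Slc51a ratio, in each genotype), 1 held a mouse far from the rest of its group. Slc51a in WT-5, at 1.93 TPM, was separated from the other WT mice by more of the group's range than the 95% limit of Dixon's test allows; chance flags about 1 in 20 such sets.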

How the results depend on the processing

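No member was called for genotype, cage or interaction under any alternative run. Over all genes, the genotype calls went from 4 to 2 with no filter and to 1 without cage C, and lay between 2 and 4 with single mice left out (2 without WT-2, WT-5, WT-11, KO-1, KO-3 or KO-4). Cage calls went from 0 to 4 with no filter, and lay between 0 and 2 with single mice left out (2 without WT-7, 1 without WT-11). Interaction calls went from 2 to 12 with a pseudocount of 0.1, 49 with no filter and 1 with a filter of 5 TPM, and lay between 0 and 5 with single mice left out (5 without WT-5, 1 without WT-6, WT-7, WT-10, KO-1, KO-4 or KO-9, and 0 without KO-3, when only cages A and B bear on it). These counts do not concern the members, and the cause was not tested. For single members, 114 of 127 alternative values kept their sign and side of the threshold. This tally is no measure of firmness. Changing the filter or the variance trend cannot move a log2 fold change, and leaving out cage C or KO-3 gave the same values. No member came near the threshold, and Fabp6 had a limma FDR of at least 0.82 under every alternative. Slc10a2 changed sign without cage term (-0.016), without cage C (-0.062) and without WT-2, WT-5, WT-6, WT-11, KO-3 or KO-9, with a range from -0.093 to 0.13 over single mice left out. So did Nr1h4 without cage C or KO-3 (-0.11 in both), Abcc3 without KO-4, Vdr without WT-2 and, in an alternative chosen after seeing the data, Slc51a with no filter and without WT-5 (0.052). With single mice left out Abcc3 ranged from -0.28 to 0.012, Nr1h4 from -0.11 to 0.21 and Vdr from -0.0020 to 0.25. The KO minus WT difference in the log2 ratio of Slc51b to Slc51a, -0.04, was 0.077 with a pseudocount of 0.1 and lay between -0.32 and 0.16 with single mice left out; its sign was positive without WT-2 (0.16), WT-10 (0.11), KO-1 (0.16), KO-3 (0.07) or KO-9 (0.07). No paired analysis was possible because the labels number each mouse once across both genotypes. TPM hides the depth; Gpbar1, Slc51a and Fgf15 are too low to compare.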
